A study of Mus musculus with 899 samples.

Results

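miR-122 is the miRNA that hepatocytes make in greatest amount, and it was followed here in the plasma of mice given whole-thorax irradiation. It was represented by the 2 mature arms of its hairpin, mmu-miR-122-5p and mmu-miR-122-3p, which were chosen by name from the 1915 mature miRNA counted. Both were among the 483 that passed the count filter and were tested. That filter asks for a minimum count in only as many samples as the smallest group holds. As background, the 5p arm is the guide strand that is loaded into Argonaute and represses target mRNA in hepatocytes, among them genes of lipid metabolism, while the 3p arm is mostly degraded. Hepatocytes also release miR-122 into the blood, in vesicles and bound to protein, and its plasma level is widely used as a marker of hepatocyte injury. The gene, Mir122, lies on chromosome 18 of GRCm38 at 65248861 to 65248926 on the plus strand, within an exon (65245359 to 65252621) of the long noncoding RNA AC157910.3.

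Plasma small RNA was sequenced in 899 samples of 196 mice of the strains C3Hf/Sed/Kam (C3H) and C57Bl/6. Of the C3H mice 64 were irradiated and 32 were sham, and of the C57Bl/6 mice 68 were irradiated and 32 were sham, with females and males in every group and no genetic change named. For 4 of the irradiated C57Bl/6 mice no sample was available before irradiation, at day 2 or at day 5. They enter the group tests only from month 1 on and are not in the own-mouse changes. Whole-thorax lung irradiation was given with the rest of the body shielded by lead, and sham mice received no radiation. Blood was taken before irradiation (PT), at day 2 or at day 5 (no mouse at both), at month 1 and then monthly to month 4 in C3H and to month 6 in C57Bl/6. The titles give 4 sets of mice, G1 and G3 of C57Bl/6 and G2 and G4 of C3H, and only G1 and G2 were followed beyond month 1. Irradiated groups became smaller with time, to 17 C3H mice at month 4 and 8 C57Bl/6 mice at month 6, each beside 16 sham mice, so late irradiated groups hold only the mice still sampled. The same mice were bled repeatedly, from behind the eye under anesthesia or terminally from the heart, and which samples were terminal is not given in the sources used here. Total reads per sample ranged from 206490 to 11814515 (median 1475030).

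miR-122-5p was an abundant plasma miRNA in these mice, while miR-122-3p was near the limit of detection. The 5p arm had between 166 and 258599 reads in a sample (median 4834), which was 0.0179% to 10.4% of all miRNA reads (median 0.322%), and its median rank among all miRNA was 36. It reached 1% of reads in 99 samples and 5% in 8. Levels were scaled for depth as CPM, counts relative to a fixed library total. The 3p arm had at least 1 read in 315 of 899 samples (35.0%) and never more than 51, with 5289 reads of the 5p arm for each read of the 3p arm over all samples. At the median depth a sample with no 3p read could still hold up to 2.03 CPM, the value of 3 reads, and this limit covers counting error only. Because each value is relative to the other plasma miRNA, more miR-122 and less of the other miRNA cannot be told apart, nor can more releasing cells and more release per cell.

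The levels of miR-122-5p, as log2 CPM, overlapped between the treatment groups before irradiation and shifted apart at some of the later time points. In C57Bl/6 sham mice, PT values ran from 9.81 to 13.62 (median 11.43) and those of the mice to be irradiated from 9.59 to 13.59 (median 11.31). In C3H, PT values ran from 10.09 to 16.29 (median 11.81) in sham mice and from 10.26 to 14.73 (median 11.91) in mice to be irradiated. The ranges overlapped almost wholly, but 2 male sham C3H mice stood far above the rest at 15.29 and 16.29. Irradiated minus sham, the log2 fold change at PT was −0.13 ± 0.23 (SE) in C57Bl/6 (edgeR quasi-likelihood test with Benjamini-Hochberg adjustment, adjusted p = 0.973) and −0.65 ± 0.22 in C3H (adjusted p = 0.695), and without those libraries it was 0.24 in C3H. No miRNA passed the 0.05 threshold at PT in either strain (0.0% of those tested in each, with 25 in C57Bl/6 and 32 in C3H at an unadjusted p under 0.05, and 0 by limma-voom and 0 by DESeq2).

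**Figure D1:**
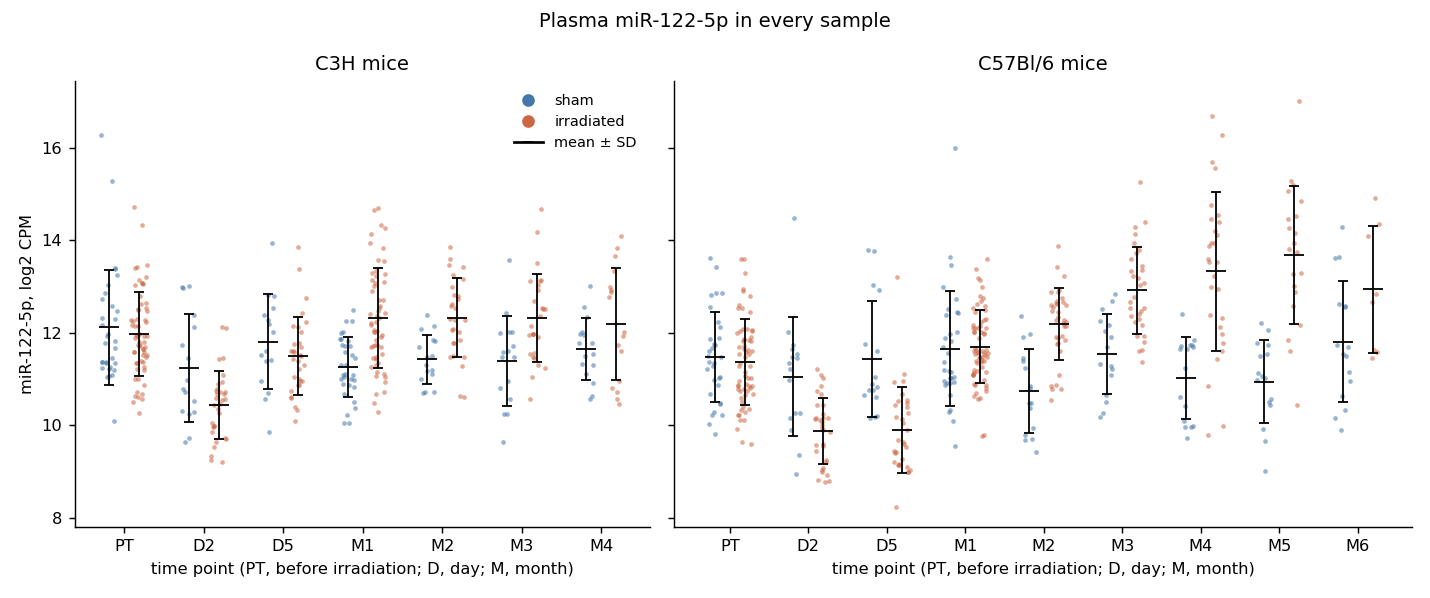
Level of miR-122-5p in plasma (log2 CPM, y axis) at each time point (x axis) in sham and irradiated mice of C3H and C57Bl/6; each point is 1 mouse and the bar is the group mean with its SD. The irradiated C57Bl/6 mean falls to 9.89 at day 2 and 9.90 at day 5 and climbs to 13.69 at month 5, while sham means stay between 10.74 and 12.12 in both strains.

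In C57Bl/6 mice, miR-122-5p fell within days of irradiation. At day 2, sham values ran from 8.94 to 14.48 (median 11.29) and irradiated values from 8.77 to 11.21 (median 9.98). All 32 irradiated mice lay below the sham median, although only 4 lay below the lowest sham mouse. The level was 3.23-fold lower in irradiated mice (log2 fold change −1.69 ± 0.31, SE; edgeR quasi-likelihood test with Benjamini-Hochberg adjustment, adjusted p = 5.5e-06; 6.63% of the miRNA tested were called). At day 5, sham values ran from 10.15 to 13.80 (median 10.87) and irradiated values from 8.25 to 13.20 (median 9.66), and 20 of 32 irradiated mice were below the lowest sham mouse. The level was 3.33-fold lower (−1.74 ± 0.31, edgeR adjusted p = 1.4e-06; 14.1% called). The median share of plasma miRNA reads in irradiated mice was 0.0865% at day 2 and 0.0759% at day 5. With each mouse as a block, which sets its sample against its own PT sample, the day 2 difference was −1.14 and lost its call (edgeR adjusted p = 0.0581), while that of day 5 was called in every alternative run. Within set G1 the day 2 difference was −0.97 (edgeR adjusted p = 0.136) and within G3 −1.96.

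In C3H mice, the early fall was called at day 2 only. At day 2, sham values ran from 9.63 to 13.02 (median 10.89) and irradiated values from 9.20 to 12.13 (median 10.51), and 25 of 32 irradiated mice were below the sham median. The log2 fold change was −1.06 ± 0.31 (edgeR quasi-likelihood test with Benjamini-Hochberg adjustment, adjusted p = 0.0213; 4.97% called). This call was lost under limma-voom (−0.79, adjusted p = 0.101), with the mouse as a block (−0.55, edgeR adjusted p = 0.665; −0.79, limma-voom adjusted p = 0.0970), without the highest sham library (−0.91, edgeR adjusted p = 0.0632) and within each set alone (−0.71 in G2 and −1.37 in G4). It was also lost with the study's own normalization and limma. At day 5, sham values ran from 9.86 to 13.95 (median 11.81) and irradiated values from 10.10 to 13.86 (median 11.47), ranges that coincide. The day 5 difference was −0.38 ± 0.32 (edgeR adjusted p = 0.737; 3.11% called), and its sign differed between the sets, at −1.08 in G2 and 0.38 in G4.

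Both arms of the experiment were then set against their own PT level, since sham mice were bled as often as irradiated ones. These edgeR changes, and the F test of the months below, compare group means. The PT mean holds all PT samples of the arm, also those of mice not bled on the later day. In C57Bl/6, the irradiated mice changed by −1.64 ± 0.25 from PT to day 2 (edgeR quasi-likelihood test with Benjamini-Hochberg adjustment, adjusted p = 8.7e-10; 35.8% called) and by −1.39 ± 0.24 to day 5 (adjusted p = 1.8e-07; 32.7% called). Sham C57Bl/6 mice changed by −0.08 ± 0.32 to day 2 (edgeR adjusted p = 0.932; 21.5% called) and by 0.22 ± 0.32 to day 5 (adjusted p = 0.674; 30.0% called), the latter being −0.13 with the mouse as a block and −0.038 by limma-voom. In single mice with a PT sample, 29 of 32 irradiated C57Bl/6 mice were lower at day 2 and 26 of 32 at day 5, against 10 of 16 sham mice at either day. Irradiated C3H mice changed by −1.67 ± 0.25 to day 2 (edgeR adjusted p = 3.1e-10; 38.3% called), with 31 of 32 lower than at PT, and by −0.52 ± 0.23 to day 5 (adjusted p = 0.0653; 34.8% called). Sham C3H mice also changed by −1.26 ± 0.34 to day 2 (edgeR adjusted p = 0.00180; 25.7% called) and by −0.79 ± 0.33 to day 5 (adjusted p = 0.0832; 17.4% called). The sham C3H change at day 2 rested on the 2 high PT libraries, and without them it was −0.37 (edgeR adjusted p = 0.413), while that at day 5 turned to 0.10. As own-mouse change, sham C3H mice averaged −1.05 at day 2 and −0.13 at day 5, where 8 were lower and 8 higher. Sham C57Bl/6 mice averaged 0.01 and −0.48 (n = 16 in each sham group). Irradiated mice averaged −1.71 and −0.32 in C3H and −1.48 and −1.49 in C57Bl/6 (n = 32 in each).

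**Figure D2:**
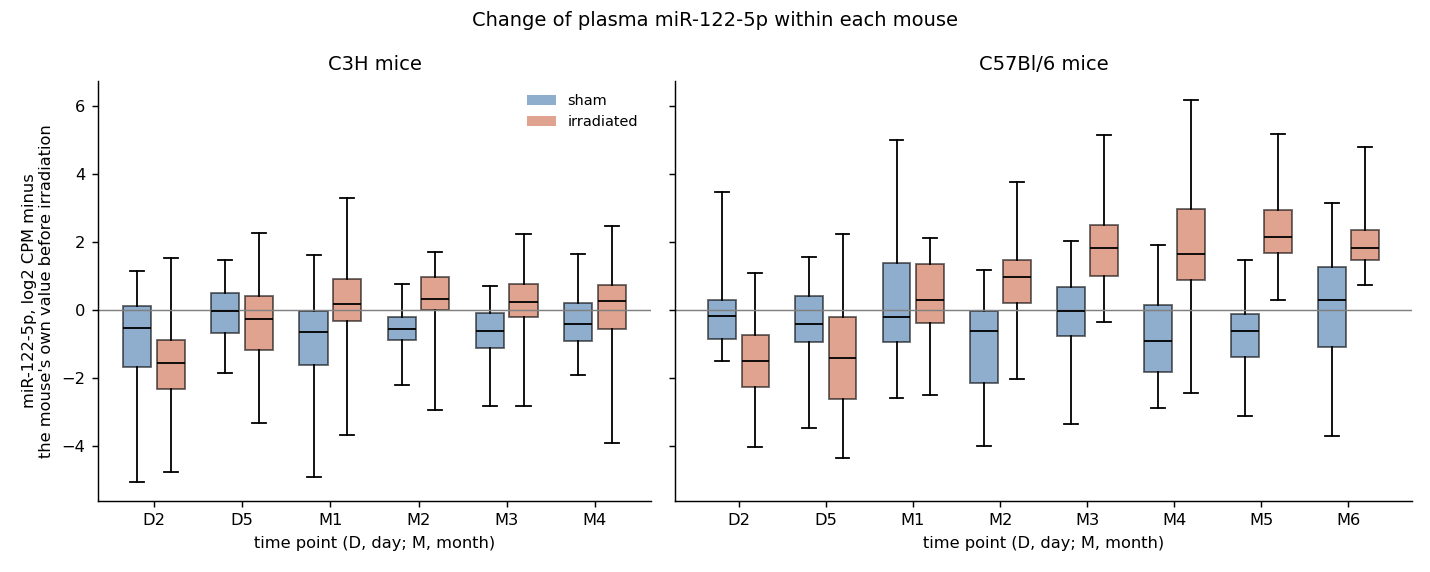
Change of miR-122-5p from the same mouse's sample before irradiation (difference in log2 CPM, y axis) at each later time point (x axis), by strain and treatment; boxes span the quartiles, the line is the median and whiskers reach the lowest and highest mouse. The irradiated C57Bl/6 boxes lie below 0 at days 2 and 5, and at month 5 the whole range of 18 mice lies above 0.

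In C57Bl/6, the early fall turned into a rise, and the difference between the groups grew up to month 5. At month 1 the groups overlapped, with sham values from 9.56 to 16.01 (median 11.28) and irradiated values from 9.77 to 13.61 (median 11.58). The difference at month 1 was −0.55 ± 0.22 (edgeR quasi-likelihood test with Benjamini-Hochberg adjustment, adjusted p = 0.141; 3.73% called), and its sign came from 1 male sham mouse at 16.01, without which it was 0.06. At month 2, sham values ran from 9.42 to 12.37 (median 10.66) and irradiated values from 10.56 to 13.88 (median 12.28), and 35 of 36 irradiated mice exceeded the sham median. miR-122-5p was 2.57-fold higher (1.36 ± 0.34, edgeR adjusted p = 0.00507; 3.31% called). At month 3, sham values ran from 10.19 to 12.84 (median 11.51) and irradiated values from 11.37 to 15.26 (median 12.78). With 30 of 31 irradiated mice above the sham median, the level was 2.77-fold higher (1.47 ± 0.35, edgeR adjusted p = 0.00156; 1.66% called).

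The largest differences between irradiated and sham C57Bl/6 mice came at months 4 and 5. At month 4, sham values ran from 9.72 to 12.41 (median 11.45) and irradiated values from 9.79 to 16.69 (median 13.54), with 19 of 29 irradiated mice above every sham mouse. The level was 7.85-fold higher (2.97 ± 0.38, edgeR quasi-likelihood test with Benjamini-Hochberg adjustment, adjusted p = 5.4e-12; 4.76% called). The groups differed less in mean log2 CPM (2.30) and in median log2 CPM (2.09). At month 5, sham values ran from 9.01 to 12.22 (median 11.04) and irradiated values from 10.44 to 17.01 (median 13.81), with 17 of 21 above every sham mouse. The level was 9.38-fold higher (3.23 ± 0.39, edgeR adjusted p = 3.6e-13; 3.52% called), and its median share of reads was 1.44% in irradiated mice against 0.225% in sham mice. Here too the differences in mean (2.74) and median (2.77) log2 CPM were smaller. Irradiated mice differed widely among themselves, by 120-fold between the lowest and highest at month 4 and by 94.7-fold at month 5, against 5.40-fold at day 2, 31.0-fold at day 5, 16.0-fold before irradiation and 10.9-fold at month 6. On the log2 scale irradiated mice spanned 6.90 at month 4. Sham C57Bl/6 mice spanned 2.69 at month 4 and 3.21 at month 5, but 5.53 at day 2 and 6.45 at month 1. Such a range tends to grow with the number of mice, which was 29 irradiated mice at month 4 and 8 at month 6. At month 6, when only 8 irradiated mice were sampled, sham values ran from 9.91 to 14.30 (median 11.62) and irradiated values from 11.46 to 14.91 (median 12.75). The month 6 difference was 1.10 ± 0.44 (95% interval 0.24 to 1.96, edgeR adjusted p = 0.409; 0.414% called), and with the mouse as a block it was 1.60 and called (edgeR adjusted p = 0.0476). The calls of months 2 to 5 were kept in all alternatives run for them.

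In C3H, miR-122-5p was higher in irradiated than in sham mice at month 1, and the later differences of the same sign did not pass. At month 1, sham values ran from 10.05 to 12.49 (median 11.21) and irradiated values from 10.30 to 14.71 (median 12.19), and 22 of 58 irradiated mice were above every sham mouse. The level was 2.51-fold higher (1.33 ± 0.24, edgeR quasi-likelihood test with Benjamini-Hochberg adjustment, adjusted p = 6.5e-06; 3.31% called). From PT to month 1, irradiated C3H mice changed by 0.44 ± 0.19, which was not called (edgeR adjusted p = 0.0546). Sham C3H mice changed by −1.54 ± 0.27 (edgeR adjusted p = 2.3e-07), from a PT mean that holds the 2 high libraries. As own-mouse change the averages were 0.28 (n = 58) and −0.85 (n = 32). Within set G4 the month 1 difference was 1.81 (edgeR adjusted p = 0.00015) and within G2 it was 0.67 and not called (adjusted p = 0.481), and the difference between the sets was not tested. At month 2, sham values ran from 10.70 to 12.39 (median 11.40) and irradiated values from 10.62 to 13.85 (median 12.30), for a difference of 1.04 ± 0.34 (edgeR adjusted p = 0.149; 0.621% called). It was called by DESeq2 (1.12, adjusted p = 0.0418) and in a fit of these 2 groups alone (1.06, edgeR adjusted p = 0.00192). At month 3, sham values ran from 9.63 to 13.58 (median 11.53) and irradiated values from 10.58 to 14.69 (median 12.16), for a difference of 0.94 ± 0.34 (edgeR adjusted p = 0.160; 2.07% called), which without the highest sham library was 1.21 (edgeR adjusted p = 0.0303). At month 4, sham values ran from 10.58 to 13.02 (median 11.66) and irradiated values from 10.46 to 14.09 (median 12.01), for a difference of 0.84 ± 0.37 (edgeR adjusted p = 0.403; 0.414% called).

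**Figure D3:**
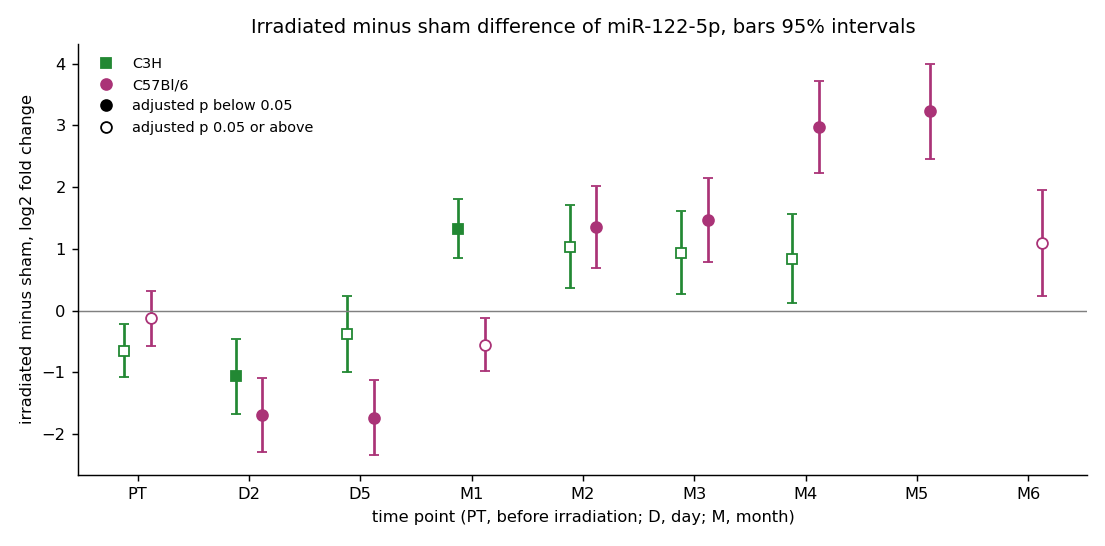
Log2 fold change of miR-122-5p, irradiated minus sham (y axis), at each time point (x axis) in C3H and C57Bl/6 from the edgeR fit, with 95% confidence intervals; filled points have an adjusted p below 0.05. C57Bl/6 goes from −1.69 at day 2 to 3.23 at month 5, and C3H from −1.06 at day 2 to 1.33 at month 1 and 0.84 at month 4.

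The months as a whole were compared with PT within each arm by an F test. Irradiated C57Bl/6 mice changed (edgeR quasi-likelihood F test with Benjamini-Hochberg adjustment, adjusted p = 9.1e-44; 56.7% called), and their own-mouse change averaged 0.89 ± 1.25 (SD, n = 32) at month 2, 1.79 ± 1.21 (n = 27) at month 3, 1.94 ± 2.16 (n = 25) at month 4 and 2.29 ± 1.28 (n = 18) at month 5. At month 4, 21 of 25 were above their PT level, as were all 18 at month 5 and all 8 at month 6. Sham C57Bl/6 mice changed too (edgeR adjusted p = 1.9e-05; 50.3% called), with 12 of 16 below their PT level at month 5 and 9 of 16 above it at month 6. In C3H, the F test was passed by sham mice (edgeR adjusted p = 6.3e-08; 45.1% called) and not by irradiated mice (adjusted p = 0.284; 54.7% called). Sham C3H mice were below their own PT level in 24 of 32 cases at month 1 and 13 of 16 at month 2, while 36 of 58 and 21 of 28 irradiated C3H mice were above theirs. The sham C3H result was lost without the 2 high PT libraries (edgeR adjusted p = 0.144).

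The 2 strains were compared in the size of the irradiation effect. At month 1 the effect in C57Bl/6 was below that in C3H by −1.88 ± 0.32 on the log2 scale (edgeR quasi-likelihood test with Benjamini-Hochberg adjustment, adjusted p = 1.6e-06; 1.24% called), which was −1.30 (edgeR adjusted p = 0.00333) without the 3 sham libraries over 15 log2 CPM and was not called by limma-voom (−1.05, adjusted p = 0.0864; −1.04 and 0.0782 with the mouse as a block). At month 4 it was above that in C3H by 2.13 ± 0.50 (edgeR adjusted p = 0.00561; 1.24% called). The difference was not called at day 2 (−0.63 ± 0.45, edgeR adjusted p = 0.762; 0.621% called), day 5 (−1.36 ± 0.46, adjusted p = 0.093; 1.86% called), month 2 (0.32 ± 0.45, adjusted p = 1.0; 0.207% called) or month 3 (0.53 ± 0.46, adjusted p = 0.915; 0.414% called). Before irradiation, over both arms, C57Bl/6 mice had less miR-122-5p than C3H mice (−0.86 ± 0.16, edgeR adjusted p = 6.0e-07; 50.7% called), and without the 3 high sham libraries the difference was −0.38 (edgeR adjusted p = 0.0315).

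Across the 32 groups of strain, treatment and time point, mean levels ran from 9.89 log2 CPM in irradiated C57Bl/6 mice at day 2 to 13.69 in those at month 5, a span of 3.80 on the log2 scale. The 4 highest means were those of irradiated C57Bl/6 mice at months 5, 4, 6 and 3, followed by irradiated C3H mice at months 2, 3, 1 and 4. The 3 lowest were irradiated C57Bl/6 mice at days 2 and 5 and irradiated C3H mice at day 2, so that irradiated groups took both ends of the order and sham groups its middle. In none of the 31 pairs of neighbours did the means differ by more than the smaller of the 2 SDs, and the widest gap was 0.59. With 32 means placed in order such small gaps were likely in advance, and the SD is the spread of mice, not the error of a mean. The gaps therefore do not tell which groups differ.

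Females and males were compared because both were irradiated in each strain. Before irradiation, females minus males gave −0.34 ± 0.22 in C3H (edgeR quasi-likelihood test with Benjamini-Hochberg adjustment, adjusted p = 0.307; 14.5% called), a sign that turned to 0.51 without the high sham male libraries and to 0.20 by limma-voom, and −0.28 ± 0.22 in C57Bl/6 (adjusted p = 0.455; 14.7% called). The irradiation effect over all later time points was not called as different between the sexes in C3H (edgeR F test, adjusted p = 1.0; 0.621% called) or in C57Bl/6 (adjusted p = 0.137; 6.63% called). In C57Bl/6 at day 5, sham females had a mean of 10.64 ± 0.48 (SD, n = 8) and sham males 12.25 ± 1.29 (n = 8), while irradiated females and males had 9.86 ± 0.61 (n = 16) and 9.94 ± 1.18 (n = 16). The irradiated sexes were thus nearly level on that day and the sham sexes apart. At month 5, irradiated C57Bl/6 females had 13.32 ± 1.98 (n = 9) and males 13.97 ± 0.99 (n = 12), both above the sham females at 10.65 ± 1.02 and sham males at 11.25 ± 0.68 (n = 8 each).

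**Figure D4:**
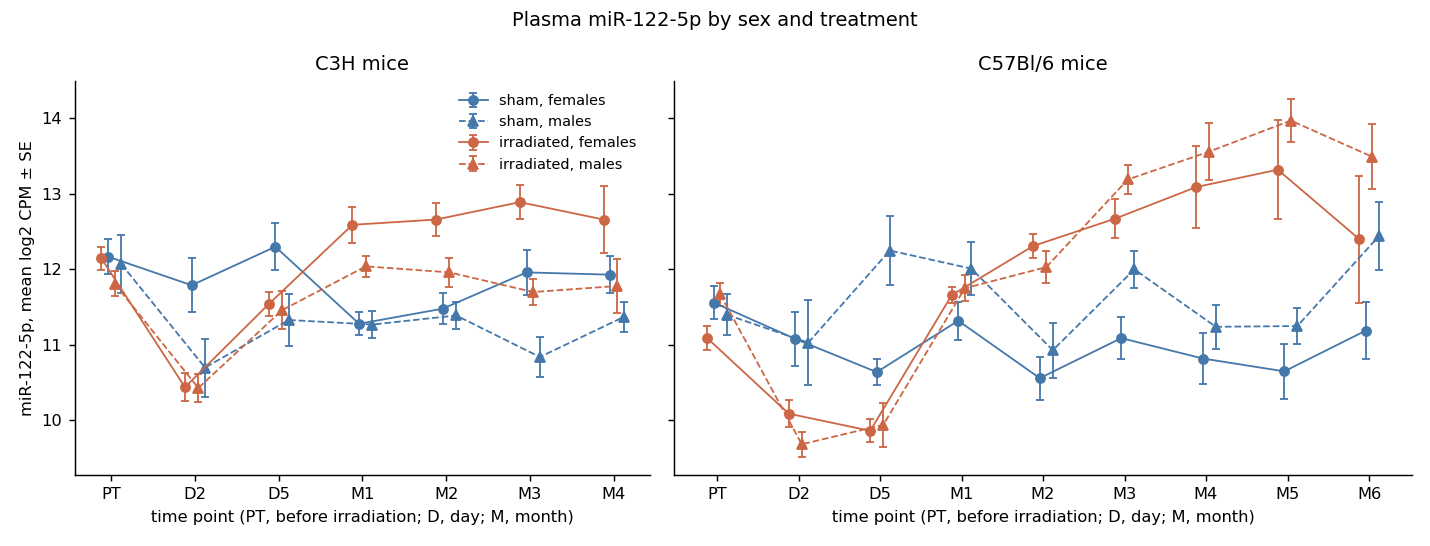
Mean level of miR-122-5p (log2 CPM, y axis) with its SE in sham and irradiated females and males at each time point (x axis), for C3H and C57Bl/6. At day 5 in C57Bl/6 the irradiated sexes are at 9.86 and 9.94 and the sham sexes at 10.64 and 12.25, and at month 5 both irradiated sexes are above both sham sexes.

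Successive levels of the same mouse were compared to see whether a high mouse stayed high. In irradiated C57Bl/6 mice, Pearson's r between successive samples of the same mouse was −0.04 from PT to day 2 (n = 32), −0.07 from day 5 to month 1 (n = 32), 0.06 from month 1 to month 2 (n = 36), 0.29 from month 2 to month 3 (n = 31), 0.33 from month 3 to month 4 (n = 29) and 0.39 from month 4 to month 5 (n = 21). From month 5 to month 6 it was 0.90 over the 8 mice left, of which 1 was higher at month 6, and their mean went from 13.43 to 12.94. Irradiated C57Bl/6 mice above their own level of a month before numbered 24 of 36 at month 2 and 25 of 31 at month 3. They numbered 16 of 29 at month 4 and 11 of 21 at month 5, so single mice did not all keep rising after month 3. In irradiated C3H mice r was 0.53 from month 1 to month 2 (n = 28), 0.39 from month 2 to month 3 (n = 27) and 0.29 from month 3 to month 4 (n = 17). In sham mice r ran from −0.27 (C57Bl/6, month 1 to month 2) to 0.47 (C57Bl/6, month 4 to month 5), with 16 mice in each pair of time points. These values are descriptions of a few mice each, and samples of a mouse share its sex and set.

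Early levels were also compared between irradiated mice that were and were not sampled at the last time point, in sets G1 and G2. Later sampling is read from the labels and is not survival. In C57Bl/6 at day 2, the 4 mice sampled at month 6 had a mean of 9.49 ± 0.67 (SD) and the 12 others 9.69 ± 0.61, a difference of −0.20 (two-sided exact permutation test, p = 0.598). At month 1 the 8 mice sampled at month 6 had 11.82 ± 0.61 and the 28 others 11.60 ± 0.72 (two-sided exact permutation test, p = 0.437). In C3H at day 2, the 10 mice sampled at month 4 had 10.75 ± 0.70 and the 6 others 10.78 ± 0.87 (two-sided exact permutation test, p = 0.928). The other differences were −0.42 in C57Bl/6 at day 5, −0.01 in C3H at day 5 and 0.01 in C3H at month 1, and after Benjamini-Hochberg adjustment over the 6 permutation tests each adjusted p was 0.987.

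The share of samples with a 3p read ran from 6.25% to 76.2% over the groups and did not simply follow the mean 5p level. It was 56.2% in sham C3H mice at day 2, whose 5p mean was 11.25, and 48.4% in irradiated C57Bl/6 mice at month 3, whose 5p mean was 12.92. In irradiated C57Bl/6 mice it had a read in 3 of 32 samples at day 2 and 2 of 32 at day 5, and in 19 of 29 (65.5%) at month 4 and 16 of 21 (76.2%) at month 5, against 5 of 16 (31.2%) sham samples at both of these months. In irradiated C3H mice at month 1 it had a read in 37 of 58 (63.8%), against 15 of 32 (46.9%) in sham mice. Over single samples, detection was more frequent where the 5p arm had more reads: in the third of samples with the fewest 5p reads (166 to 3035), 20.0% had a 3p read, and in the third with the most (7402 and above), 53.3%. miR-122-3p fell at day 5 in C57Bl/6 (−2.69 ± 0.87, edgeR quasi-likelihood test with Benjamini-Hochberg adjustment, adjusted p = 0.0187) and rose at month 5 (3.26 ± 0.83, adjusted p = 0.00475), and its effect at month 1 was lower in C57Bl/6 than in C3H (−2.58 ± 0.72, adjusted p = 0.0272). It did not pass in the other irradiated minus sham comparisons. With most samples at 0 reads these fold changes depend on the prior count, and the calls of day 5, month 5 and month 1 were lost in 6 of 19, 2 of 17 and 3 of 6 alternatives.

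Other miRNA that are abundant in liver were placed beside miR-122. They are shown with the seed, bases 2 to 8, in capitals, because miR-192-5p and miR-215-5p share theirs (UGACCUA). The sequences are those of RefSeq on GRCm38.p6, where 14 of the 17 miRNA looked up by name were matched.
miR-192-5p: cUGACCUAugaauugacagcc
miR-215-5p: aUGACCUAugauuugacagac
miR-194-5p: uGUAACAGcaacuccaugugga
miR-148a-3p: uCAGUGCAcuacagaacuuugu
miR-802-5p: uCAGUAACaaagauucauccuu
miR-192-5p is encoded at chr19:6264857-6264877 and miR-215-5p at chr1:185313610-185313630, each on the plus strand with a copy of miR-194-5p next to it. miR-148a-3p is at chr6:51269829-51269850 on the minus strand and miR-802-5p at chr16:93369737-93369758 on the plus strand.

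In the late rise of C57Bl/6, miR-192-5p and miR-802-5p rose with miR-122-5p. At month 4 miR-192-5p had a log2 fold change of 1.13 ± 0.19 (edgeR quasi-likelihood test with Benjamini-Hochberg adjustment, adjusted p = 6.5e-07) and miR-802-5p one of 1.88 ± 0.36 (adjusted p = 3.3e-05). At month 5 they were at 1.35 ± 0.20 (edgeR adjusted p = 8.9e-09) and 2.35 ± 0.38 (adjusted p = 1.3e-07), and miR-194-5p passed as well (0.88 ± 0.27, adjusted p = 0.0370), a call lost in 8 of 17 alternatives. In the early fall, miR-192-5p and, at day 2 in C57Bl/6 only, miR-802-5p were called higher in irradiated mice. miR-194-5p had log2 fold changes of −0.28 at day 2 and −0.60 at day 5 in C57Bl/6 and passed on neither day. At day 2 in C57Bl/6, miR-192-5p rose by 0.92 ± 0.19 (edgeR adjusted p = 5.8e-05) and miR-802-5p by 2.04 ± 0.38 (adjusted p = 9.1e-06), and miR-192-5p was also higher at day 5 (0.75 ± 0.18, adjusted p = 0.00098) and at day 2 in C3H (0.72 ± 0.18, adjusted p = 0.0054). miR-802-5p did not pass at day 5 in C57Bl/6 (0.75, edgeR adjusted p = 0.172) or in C3H at day 2 (0.37, adjusted p = 0.606) and day 5 (−0.05, adjusted p = 0.976). Nor did miR-192-5p at day 5 in C3H (0.28, edgeR adjusted p = 0.574). miR-802-5p was scarce, with a sham median of 1.72 log2 CPM at day 2 in C57Bl/6 and no read in 28 libraries of the series. miR-148a-3p passed in no comparison (−0.73, edgeR adjusted p = 0.0750, at day 5 in C57Bl/6).

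Over the 12 tested of the 13 miRNA in the liver-enriched list, those that rose in C57Bl/6 numbered 2 at day 2, 3 at day 5, 2 at month 2, 2 at month 4 and 3 at month 5, with none falling. The shares of all tested miRNA called at these times were 6.63%, 14.1%, 3.31%, 4.76% and 3.52%. In C3H 1 rose at day 2 and 1, miR-365-3p, fell at month 1 (−0.61 ± 0.19, edgeR quasi-likelihood test with Benjamini-Hochberg adjustment, adjusted p = 0.0478), and no member passed in the other comparisons. Of all miRNA tested in C3H, 4.97% were called at day 2 and 3.31% at month 1. The median log2 fold change of the list was 0.29 at day 2, 0.42 at day 5, 0.32 at month 4 and 0.27 at month 5 in C57Bl/6, against −0.06, −0.00, −0.07 and −0.07 over all miRNA tested. At the other times after irradiation it was between −0.16 and 0.06 in C57Bl/6, and in C3H between −0.23 and 0.07. The third member that rose at day 5 beside miR-192-5p and miR-101a-3p (0.50 ± 0.13, edgeR adjusted p = 0.0017) was miR-148a-5p (1.20 ± 0.42, adjusted p = 0.0351).

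**Figure D5:**
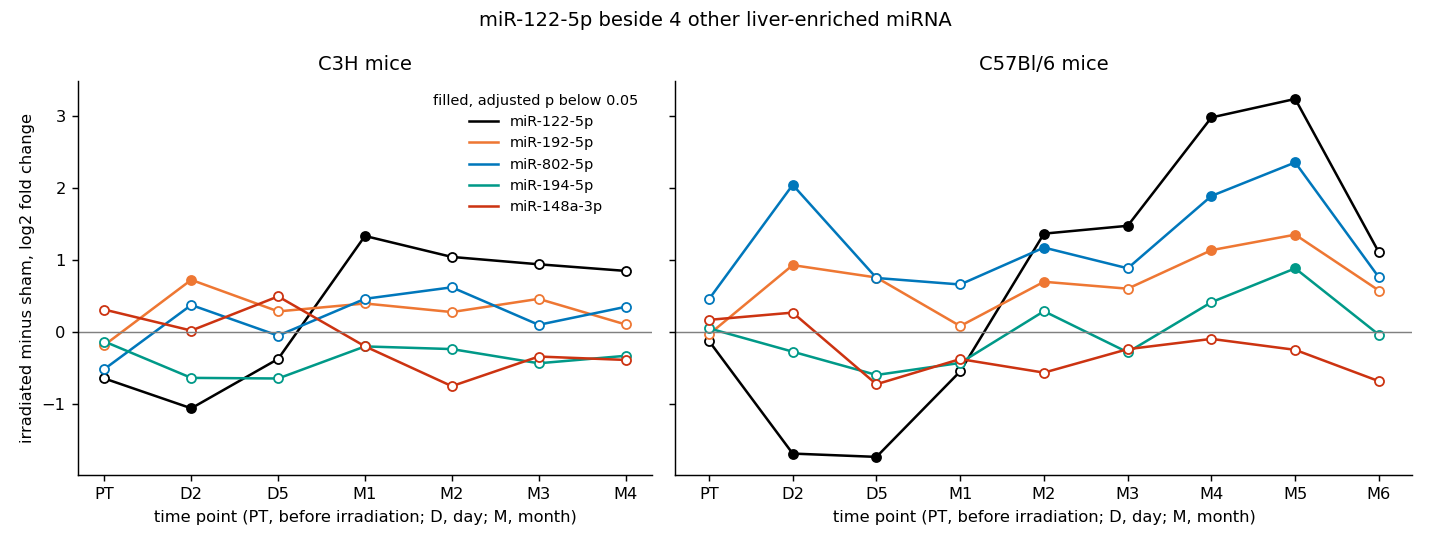
Log2 fold change, irradiated minus sham (edgeR, y axis), of miR-122-5p and of 4 other liver-enriched miRNA at each time point (x axis) in C3H and C57Bl/6; filled points have an adjusted p below 0.05. In C57Bl/6, miR-122-5p is at −1.69 and miR-802-5p at 2.04 at day 2, while at month 5 both are above 0, at 3.23 and 2.35.

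The miRNA whose pattern was most like that of miR-122-5p depended on the scale of comparison. Over the log2 fold changes of the 14 irradiated minus sham comparisons after irradiation, the highest Pearson correlations were those of miR-122-3p (0.87), miR-350-3p (0.81), miR-194-5p (0.81), miR-455-5p (0.80) and miR-150-5p (0.80). Over the deviations of the 899 samples from their group means, they were those of miR-192-5p (0.60), miR-802-5p (0.35), miR-122-3p (0.33), miR-192-3p (0.32) and miR-215-5p (0.24). The points of the first share the libraries and sham groups of each strain and time point, and those of the second share the depth and composition of each library. Deviations of miR-122-5p had correlations of −0.03 with log2 total reads and −0.08 with miR-451a, a miRNA of red blood cells.

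Markers of other cell types moved in some of the same comparisons. Of 5 leukocyte miRNA, 4 fell at day 2 and 3 at day 5 in C3H, and 2 and 4 in C57Bl/6. Over all miRNA tested, 4.97% and 3.11% were called at these days in C3H and 6.63% and 14.1% in C57Bl/6. Their summed share of reads at day 5 in C57Bl/6 ran from 0.391% to 1.27% in irradiated and from 0.731% to 2.26% in sham mice, and none was at 0 in any library. At months 4 and 5 in C57Bl/6, none of the 5 passed with edgeR. Of 7 red blood cell miRNA, 2 rose at day 5 in C3H and 1 at day 5 in C57Bl/6, and none passed elsewhere. Their summed share at month 5 in C57Bl/6 ran from 31.3% to 73.8% in irradiated and from 32.5% to 64.3% in sham mice. This sum is mostly miR-16-5p, which held a median of 46.2% of reads over all samples, against 0.583% for miR-451a. It is thus no measure of the red blood cell content of plasma. Of 4 pancreatic miRNA, 1 rose at day 2 in C3H, and in C57Bl/6 1 rose at day 2 and at day 5 and 2 or 3 at each month from 1 to 6, where 0.414% to 4.76% of all miRNA tested were called. Their summed share at month 4 ran from 0.0381% to 0.155% in irradiated and from 0.0371% to 0.0989% in sham mice. Of 7 muscle miRNA, 1 rose at day 5 and 1 at month 4 in C57Bl/6. Median total reads at day 2 in C57Bl/6 were 859400 in irradiated and 1301000 in sham mice. The part of these markers and of depth in the changes of miR-122-5p was not tested.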

How the data were processed

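Plasma miRNA was isolated from all samples and small-RNA libraries were sequenced. The authors trimmed the reads, aligned them with BaseSpace (build mm10 per the labels) and deposited raw counts, the number of reads of each mature miRNA. Hemolyzed plasma and runs with few miRNA reads had been excluded before that. Collapsing of molecular identifiers and the miRBase release are not given in the sources used here, so the detection limits of the 3p arm cover counting error only, while intervals of fold changes include the spread between mice. Groups, mice and sets came from the labels. Counts were analysed in R 4.3.3 with edgeR 4.0.16 (quasi-likelihood test, TMM factors 0.372 to 1.59, filterByExpr, Benjamini-Hochberg adjustment within a comparison over 483 miRNA, which hold 99.99% of reads), 1 mean for each of 32 groups and 867 residual degrees of freedom (835 with sex in the groups). A miRNA was called at an adjusted p below 0.05. Levels are log2 CPM with a prior count of 2. limma 3.58.1 and DESeq2 1.42.0 gave alternatives, listed with their effects in the closing section.

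Both members were named in every comparison, with 4 liver-enriched miRNA (miR-192-5p, miR-194-5p, miR-148a-3p and miR-802-5p) and the 5 miRNA most correlated with miR-122-5p by each of 2 measures. miR-365-3p, miR-101a-3p and miR-148a-5p were named after their values were seen. The members, lists and tests were chosen with earlier results of these data known. Mouse numbers in the labels pair samples of the same animal: deviations from group means over 99 abundant miRNA had a mean correlation of 0.0866 over 1962 same-mouse pairs and −0.00231 between other mice. Levels by later sampling were compared by exact permutation (100000 resamples where both groups held 10 or more mice).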

Additional observations from a re-analysis of the deposited data

Results flagged for a closer look

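The irradiation effect on miR-122-5p differed between the strains by the test of the difference itself at month 1 (C57Bl/6 minus C3H, −1.88 on the log2 scale) and at month 4 (2.13), with opposite signs. The month 1 difference was not called by limma-voom without a block (−1.05, adjusted p = 0.0864) or with 1 for each mouse (−1.04, adjusted p = 0.0782). For miR-122-3p the effect differed at month 1 (−2.58), where the 3p arm was read in 37 of 58 irradiated C3H samples, and this call was lost in 3 of 6 alternatives. At month 1 the sham C57Bl/6 group holds 1 male at 16.01 log2 CPM, and without the sham libraries above 15 log2 CPM the difference of miR-122-5p was −1.30. Under the same setting the month 4 difference was 2.09.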

How the results depend on the processing

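Of 45 results of miR-122-5p, 25 kept their direction and their side of the threshold under all alternatives run for them, and 366 of 405 single values did. The calls of miR-122-3p and of the other liver-enriched miRNA are not in this count. The fall at day 5 in C57Bl/6 ranged from −2.07 to −1.12, and the rises of months 2 to 5 from 1.25 to 1.63, 1.31 to 1.63, 2.26 to 3.09 and 2.76 to 3.35, all called. In the values that follow the cause of a change was not tested unless the setting removes the libraries named.

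With the mouse as a fixed replicate block, which compares changes from PT, irradiated minus sham was −0.55 at day 2 in C3H, −1.14 at day 2, 0.10 at month 1 and 1.60 at month 6 in C57Bl/6, and the sham C57Bl/6 change to day 5 was −0.13. With limma-voom and a replicate block for the mouse, day 2 in C3H was −0.79, month 1 in C57Bl/6 0.011 and the strain difference at month 1 −1.04. The blocks changed no other call of miR-122-5p. Under limma-voom without a block the same 3 were −0.79, 0.013 and −1.05, the sham C57Bl/6 change to day 5 was −0.038 and the sex difference in C3H at PT 0.20. With the study's normalization and limma, day 2 in C3H was −0.80 and not called, and month 1 in C57Bl/6 was 0.052. DESeq2 called month 2 in C3H (1.12), as did a fit of the 2 groups alone (1.06), and without TMM the months of irradiated C3H mice passed (adjusted p = 0.0235).

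In sets G1 and G2 alone, irradiated minus sham was 0.058 at PT, −0.71 at day 2 and 0.67 at month 1 in C3H and −0.97 at day 2 in C57Bl/6, and in G3 and G4 it was −1.37 at day 2 and 0.38 at day 5 in C3H and 0.31 at PT in C57Bl/6. The next 3 alternatives were chosen after seeing the data. Without the highest sham library, day 2 in C3H was −0.91, month 3 in C3H 1.21 and month 1 in C57Bl/6 0.056. Without the 3 sham libraries above 15 log2 CPM, PT in C3H was 0.24, month 1 in C57Bl/6 0.053, the sham C3H changes −0.37 to day 2 and 0.10 to day 5, the sham C3H months adjusted p 0.144 and the sex difference in C3H at PT 0.51. Without the highest irradiated library no call of miR-122-5p changed.

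For later sampling, the difference was 0.12 without TMM and 0.40 as own-mouse change at day 2 in C3H, −0.0077 and −0.12 at month 1 in C3H, and 0.84 as own-mouse change at day 2 in C57Bl/6. Without a filter on low counts, 31 miRNA in C3H and 37 in C57Bl/6 of 1403 were called at PT, against 0 of 483 with it. Library totals without TMM shifted the median of all miRNA by up to 0.157. Depth limits the 3p arm, which had no read in 584 samples.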
